A study of Xenopus tropicalis with 52 samples.

Results

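The genes described here are 5 transcription factor genes of the endoderm: *sox17a* (Xetro.N00476), *sox17b* (Xetro.N00475), *gata4* (Xetro.K05138), *gata5* (Xetro.K02609) and *gata6* (Xetro.F00583). They were chosen by name and gene ID, together with any further gene whose symbol began with sox17, and no further one was listed. The 5 genes were found among 28148 genes with exon counts, among 23701 genes with intron counts and among 19554 gene lines of the nascent RNA table. All 5 passed the filter on low counts in both poly(A) experiments. The study followed zygotic genome activation in whole embryos of wild-type, out-bred Nigerian *Xenopus tropicalis*, with 10 to 15 embryos per poly(A) library. At stage 9+ (late blastula), 8 groups of 3 libraries were compared. Wnt loss of function (LOF) embryos had been injected with 5 ng of a morpholino (MO, a synthetic antisense oligomer) that stops translation of β-catenin, Nodal LOF embryos were kept in 100 µM SB431542 and BMP LOF embryos in 10 µM LDN193189 from the 8-cell stage, and Wnt/Nodal, Wnt/BMP, Nodal/BMP and Wnt/Nodal/BMP LOF embryos received these treatments together. Control embryos received DMSO and no injection. In the comparisons of the 4 groups with Wnt LOF, the β-catenin MO and the injection therefore cannot be told apart. In the T-box experiment, 4x zT LOF embryos had received MOs against 4 zygotic T-box factors, 5 ng each for zVegT and *eomes* and 2.5 ng of each of a pair of MOs for *tbxt* and for *tbxt.2*, and control MO embryos had received 20 ng of a standard control MO, with 4 libraries each at stages 10+, 11+ and 12+ (early, mid- and late gastrula). The *eomes* MO and 1 MO of each pair block splicing of their target, and the other T-box MOs block translation. Nascent RNA was labelled with 75 ng of 4-thiouridine (4sU) in pools of 30 embryos at stage 8+ (mid-blastula transition, MBT) and stage 10+, with 1 library of 4sU-enriched RNA and 1 of input RNA per stage.

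Sox17 proteins are HMG-box factors and Gata4, Gata5 and Gata6 are zinc finger factors that bind GATA motifs. In frog embryos both families act in the vegetal cells that form endoderm, downstream of maternal VegT, of Nodal ligands and of the Mix and Bix homeobox factors, and they activate endodermal genes such as the *foxa* genes. Gata4 to Gata6 are also known for later roles in heart and gut. Nodal signals act through Smad2 and Foxh1, β-catenin carries the maternal Wnt signal on the dorsal side, and BMP signals pattern the ventral side.

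Exon counts summed to 27710453 to 45443446 per library at stage 9+ and to 26586752 to 60984753 in the T-box experiment. Values are given as CPM (counts scaled to a common library size) after normalization by trimmed mean of M-values (TMM), per gene and not per length, so they are compared between groups within a gene and not between genes. In whole embryos, fewer cells of a type and less RNA per cell cannot be told apart. Markers of mesoderm, ectoderm and endoderm were detected at stage 9+. Of 7 listed genes each, 5, 7 and 7 had an annotated symbol, and 5, 6 and 6 passed the filter. Of the 5 listed blood and heart genes 4 had an annotated symbol, and none of these passed it. The RNA of a gene targeted by a translation-blocking MO does not test the MO: *ctnnb1*, which encodes β-catenin, ran from 2207 to 2388 CPM in Wnt LOF and from 2341 to 3030.0 CPM in control libraries. The RefSeq annotation of assembly UCB_Xtro_10.0 lists *sox17a*, *sox17b.1* and *sox17b.2* as consecutive genes, and the count tables have 1 ID named *sox17b*. Whether that ID holds both copies was not stated, and close paralogs can share reads, so the split of counts between *sox17a* and *sox17b* is uncertain. The study describes the libraries of a poly(A) group as biological replicates.

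Nodal LOF lowered all 5 endoderm factors at stage 9+. The 5 genes fell relative to control embryos at an adjusted p of at most 0.1 (edgeR quasi-likelihood test, Benjamini-Hochberg adjustment over 16001 genes), where 0.669% of all genes tested fell. Mean levels in Nodal LOF embryos were 20.5% of control for *sox17a*, 32.0% for *sox17b*, 14.3% for *gata4*, 16.2% for *gata5* and 16.6% for *gata6*.

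Exon counts of *sox17a* came to 47.5, 86.9 and 34.1 CPM in the Nodal LOF libraries, against 339, 267 and 216 CPM in the control libraries (replicates 1, 2 and 3, in this order here and below). Every Nodal LOF library lay far below the lowest control library (log2 fold change -2.29, SE 0.50, adjusted p = 0.0503). For *sox17b* the values were 52.4, 78.6 and 39.7 CPM in Nodal LOF and 212, 182 and 139 CPM in control libraries. These groups did not overlap either, although the fall of *sox17b* was estimated smaller (log2 fold change -1.64, SE 0.38, adjusted p = 0.0696). The gene *gata4* had 41.7, 39.3 and 22.2 CPM in Nodal LOF and 381, 192 and 149 CPM in control libraries. Its control libraries spread widely, with replicate 1 the highest, and all of them lay above every Nodal LOF library (log2 fold change -2.80, SE 0.60, adjusted p = 0.0432). With the fewest counts of the 5, *gata5* had 4.21, 4.62 and 2.38 CPM in Nodal LOF and 38.6, 19.9 and 10.6 CPM in control libraries. It too was lower in every Nodal LOF library than in any control library (log2 fold change -2.62, SE 0.54, adjusted p = 0.0310). For *gata6* the libraries held 30.1, 36.2 and 17.7 CPM after Nodal LOF and 275, 134 and 96.1 CPM in controls. The groups were apart (log2 fold change -2.59, SE 0.53, adjusted p = 0.0317), so that all 5 genes had Nodal LOF libraries entirely below the controls, a separation found for 4.04% of all genes. Each call rests on few libraries. Leaving out replicate 1, 2 or 3 from all groups left 2, 1 and 0 of the 5 genes called, with the estimates of all 5 genes still below 0. Over all genes these fits called 72 of 15859, 8 of 15947 and 10 of 15967, against 109 of 16001 with all replicates.

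**Figure D1:**
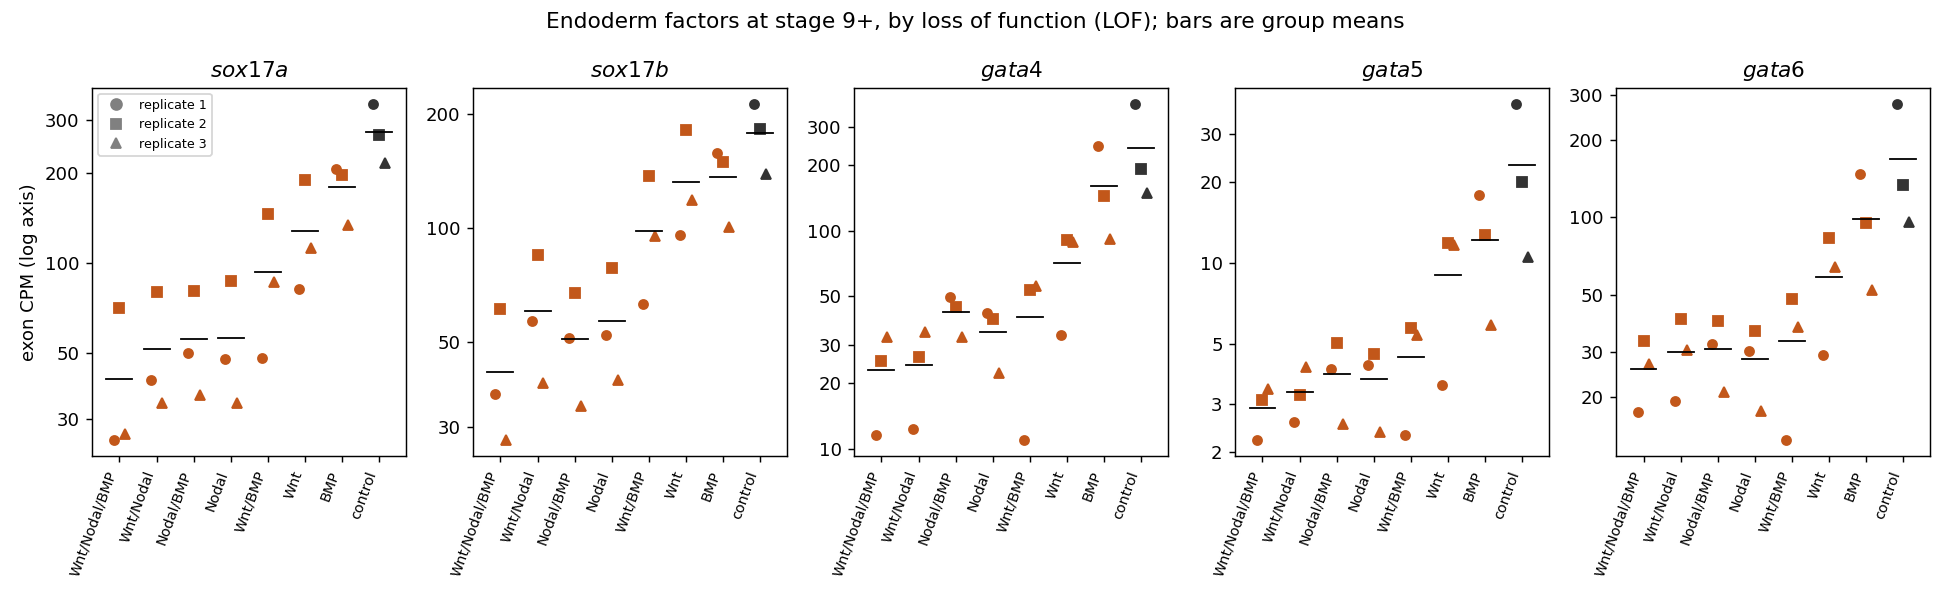
Exon CPM (log axis, TMM-normalized) of each endoderm factor in the 24 stage 9+ libraries, by group; points are libraries, their shape gives the replicate number and bars are group means. Nodal LOF libraries of *gata4* lie between 22.2 and 41.7 CPM, below every control library, and control replicate 1 is the highest control for each gene.

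Adding BMP LOF, Wnt LOF or both to Nodal LOF kept all 5 genes low. In Nodal/BMP LOF embryos 5 of 5 fell (background 0.506% of genes lower), with log2 fold changes of -2.30, -1.80, -2.51, -2.57 and -2.45 for *sox17a*, *sox17b*, *gata4*, *gata5* and *gata6* (edgeR, adjusted p from 0.0380 to 0.0863). In Wnt/Nodal LOF embryos 5 of 5 fell (background 2.1%), with log2 fold changes in the same gene order of -2.41, -1.56, -3.31, -2.79 and -2.49 (adjusted p from 0.00440 to 0.0348). In Wnt/Nodal/BMP LOF embryos 5 of 5 fell (background 2.62%), by estimates of -2.74, -2.09, -3.38, -2.98 and -2.71 on the log2 scale (adjusted p from 0.00330 to 0.00639). Expression after Wnt/Nodal/BMP LOF was the lowest of the 8 group means for each gene. The counts of *sox17a* were 25.6, 70.4 and 26.8 CPM in Wnt/Nodal/BMP LOF libraries, and those of *gata4* 11.5, 25.1 and 32.4 CPM. Against Nodal LOF alone, however, 0 of the 5 genes passed the test in Wnt/Nodal/BMP LOF embryos (edgeR, 0.4% of genes called in either direction, 583 genes and none of the 5 at an unadjusted p below 0.05). The 95% intervals of these log2 differences ran from -1.77 to 0.61 for *gata4* and from -1.18 to 0.94 for *gata6*, which hold a further fall as well as none. In all 3 of the combined groups with Nodal LOF, every library of each gene lay below every control library, as did 4.24%, 5.24% and 5.8% of all genes in Nodal/BMP, Wnt/Nodal and Wnt/Nodal/BMP LOF. Leaving out a replicate number lowered the counts of called genes to 0 to 1 in Nodal/BMP LOF, 2 to 3 in Wnt/Nodal LOF and 2 to 4 in Wnt/Nodal/BMP LOF. Over all genes these fits called 12 to 70, 97 to 310 and 88 to 447, against 92, 382 and 478 with all replicates.

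Wnt LOF embryos had lower mean levels of the 5 genes, and 0 of 5 passed the test (edgeR, 0.887% of genes lower). At an unadjusted p below 0.05 there were 800 genes, among them 4 of the 5. The log2 estimates were -1.1 for *sox17a*, -0.43 for *sox17b*, -1.76 for *gata4*, -1.35 for *gata5* and -1.51 for *gata6* (SE 0.37 to 0.58), with adjusted p from 0.308 to 1.00. The spread between replicates was large in this group. For *gata4*, Wnt LOF libraries held 33.4, 91.0 and 88.6 CPM, and for *gata6* 29.2, 83.3 and 64.2 CPM, with replicate 1 the lowest in both. Relative to the control with the same replicate number, *gata4* stood at 8.76%, 47.5% and 59.6% of control and *gata6* at 10.6%, 62.4% and 66.8%. The same share was 9.21%, 59.4% and 111% for *gata5*, 24.1%, 71.1% and 52.1% for *sox17a* and 45.4%, 99.7% and 85.2% for *sox17b*. Replicate 1 thus carried a much deeper loss than replicates 2 and 3 in all 5 genes, and *gata5* in replicate 3 was not below its control. Libraries of Wnt LOF and control did not overlap for *sox17a*, *gata4* and *gata6*, a separation shown by 4.26% of genes. Replicate numbers paired the libraries, and with the replicate number as a block *sox17a* fell by 1.21 on the log2 scale (edgeR, adjusted p = 0.0300), 1 of 5 genes called where 2.72% of genes fell. DESeq2 called 1 of the 5, *gata4* (adjusted p = 0.0714), and 310 of all 16001 genes in either direction.

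BMP LOF left 0 of 5 genes called, and 0 of the 16001 genes passed the test in this comparison (0% lower). At an unadjusted p below 0.05 edgeR found 217 genes and none of the 5, and DESeq2 called 2 genes and none of the 5. All 5 estimates were below 0, at -0.61, -0.39, -0.58, -0.92 and -0.78 for *sox17a*, *sox17b*, *gata4*, *gata5* and *gata6*. The 95% intervals ran from -1.62 to 0.40 for *sox17a* and from -1.98 to 0.14 for *gata5* and so hold falls as well as no change. BMP LOF libraries of *sox17a* held 207, 197 and 133 CPM, all below the lowest control library, as for 2.39% of genes. The other 4 genes overlapped with control, for example *gata4* with 246, 145 and 91.9 CPM in BMP LOF libraries. Set against the control library of the same replicate number, BMP LOF libraries stood at 60.9%, 74.0% and 61.8% of control for *sox17a*, 74.4%, 82.1% and 72.3% for *sox17b*, 64.6%, 75.6% and 61.8% for *gata4*, 46.3%, 63.7% and 56.0% for *gata5* and 53.6%, 71.4% and 54.2% for *gata6*. The share of all genes that were lower in every such pair was not worked out, so these values are a description. With the replicate block edgeR still called 0 of the 5 genes and 0.0312% of all genes lower, with adjusted p from 0.896 for *sox17a* to 0.996 for *gata4* and *gata6*, and of the 5 only *sox17a* had an unadjusted p below 0.05 (0.0383).

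In Wnt/BMP LOF embryos the 3 GATA genes fell and the sox17 genes did not pass the test. Here 3 of 5 genes were called, where 1.43% of genes fell, namely *gata4* (log2 fold change -2.58, SE 0.59, adjusted p = 0.0355), *gata5* (log2 fold change -2.36, SE 0.53, adjusted p = 0.0307) and *gata6* (log2 fold change -2.35, SE 0.53, adjusted p = 0.0297). The values for *gata6* were 13.7, 48.2 and 37.4 CPM in Wnt/BMP LOF, again with replicate 1 the lowest, and 275, 134 and 96.1 CPM in control libraries. For *sox17a* the libraries held 48.0, 145 and 85.9 CPM and for *sox17b* 63.2, 137 and 95.3 CPM after Wnt/BMP LOF. Every one of these lay below the lowest control library (5.69% of genes), yet the estimates of -1.56 and -0.85 had adjusted p of 0.197 and 0.575 (edgeR). With the replicate block 5 of 5 genes were called lower (5.09% of genes), *sox17a* with an adjusted p of 0.00211 and *sox17b* with 0.0227. DESeq2 without the block added *sox17a* (adjusted p = 0.0412) and called 482 of all 16001 genes in either direction. Leaving out replicate 1, 2 or 3 left 1, 0 and 1 gene called. Over all genes these fits called 198 of 15859, 11 of 15947 and 239 of 15967, against 279 of 16001 with all replicates. Set against Wnt LOF alone, 0 of 5 genes passed (edgeR, 0.00625% of genes called, 271 genes and none of the 5 at an unadjusted p below 0.05), with estimates from -1.01 for *gata5* to -0.42 for *sox17b*. DESeq2 called 15 genes there and none of the 5.

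**Figure D2:**
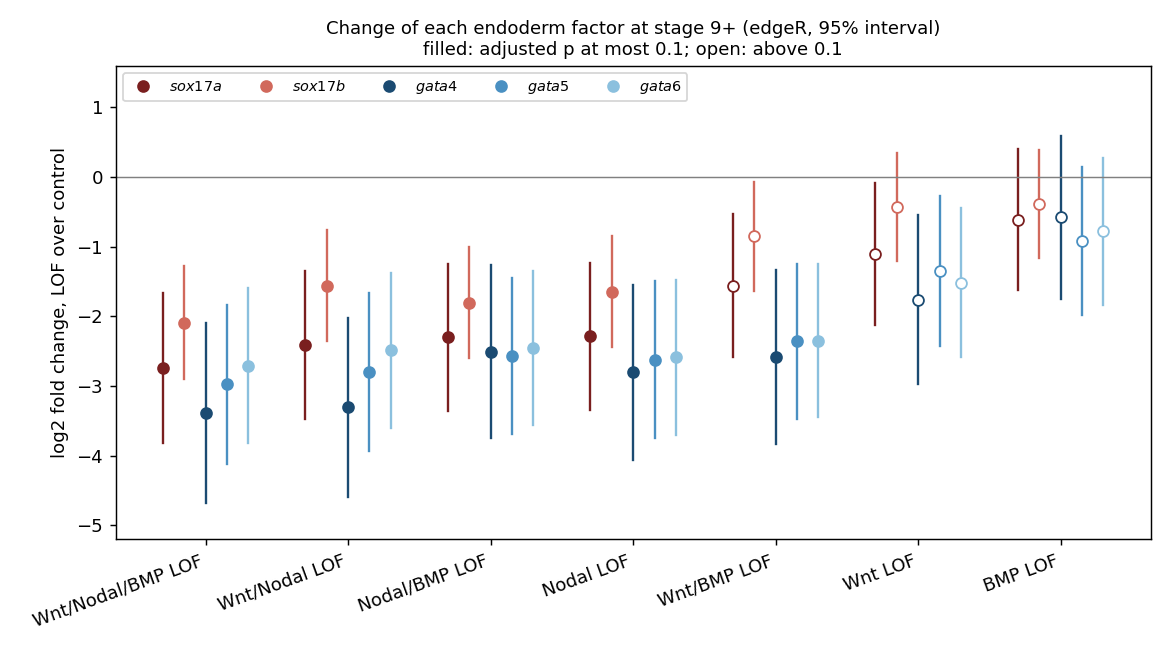
Log2 fold change of each endoderm factor in the 7 LOF groups over control at stage 9+ (edgeR, 3 libraries per group; bars are 95% intervals, filled points have an adjusted p of at most 0.1). The 4 groups with Nodal LOF have filled points for all 5 genes, between -3.38 and -1.56, Wnt/BMP LOF has them for the GATA genes, and BMP and Wnt LOF have none.

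From lowest to highest mean, the groups ran for *sox17a* in the order Wnt/Nodal/BMP (40.9 ± 25.5 CPM), Wnt/Nodal (51.5 ± 24.8), Nodal/BMP (55.6 ± 22.8), Nodal (56.1 ± 27.5), Wnt/BMP (93.1 ± 49.1), Wnt (128 ± 55.8) and BMP LOF (179 ± 40.0), with control highest at 274 ± 62.1 CPM (mean ± SD, n = 3 each). Neighbours in this order overlapped in their libraries, apart from BMP LOF and control. The order of *gata4* was Wnt/Nodal/BMP (23.0 ± 10.6 CPM), Wnt/Nodal (24.3 ± 11.1), Nodal (34.4 ± 10.6), Wnt/BMP (40.1 ± 25.3), Nodal/BMP (42.3 ± 8.69), Wnt (71.0 ± 32.6) and BMP LOF (161 ± 78.4), and control at 240.5 ± 124 CPM. Here Wnt LOF and BMP LOF were the only neighbours without overlap. For *sox17b*, *gata5* and *gata6* all 7 neighbouring pairs overlapped, so the order of neighbours does not stand out from the spread. The means of *sox17b* were 41.8 ± 17.3 CPM in Wnt/Nodal/BMP, 51.0 ± 16.8 in Nodal/BMP, 56.9 ± 19.8 in Nodal, 60.4 ± 23.2 in Wnt/Nodal, 98.4 ± 36.8 in Wnt/BMP, 132 ± 44.4 in Wnt and 136 ± 30.9 in BMP LOF, and 178 ± 36.5 CPM in control. Those of *gata5* were 2.92 ± 0.622 CPM in Wnt/Nodal/BMP, 3.33 ± 0.782 in Wnt/Nodal, 3.74 ± 1.19 in Nodal, 3.89 ± 1.27 in Nodal/BMP, 4.50 ± 1.90 in Wnt/BMP, 9.01 ± 4.73 in Wnt and 12.2 ± 6.0 in BMP LOF, and 23.0 ± 14.3 CPM in control. For *gata6* they were 25.8 ± 7.84 CPM in Wnt/Nodal/BMP, 28.0 ± 9.46 in Nodal, 30.0 ± 10.4 in Wnt/Nodal, 30.9 ± 9.29 in Nodal/BMP, 33.1 ± 17.7 in Wnt/BMP, 58.9 ± 27.5 in Wnt and 98.3 ± 47.8 in BMP LOF, and 168 ± 94.6 CPM in control. In every gene but *gata4* the groups with Nodal LOF filled the 4 lowest ranks, and in all 5 genes the ranks above Wnt/BMP and Nodal/BMP LOF went to Wnt LOF, BMP LOF and control.

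Whether the losses add up was tested as an interaction of each pair of signals on the log2 scale. For Wnt by Nodal all 5 estimates were above 0, at 0.97, 0.51, 1.26, 1.18 and 1.61 in the order *sox17a*, *sox17b*, *gata4*, *gata5* and *gata6*, which means a combined loss smaller than the sum of the separate log2 losses. None passed (edgeR, adjusted p = 1.00 for each, 0% of genes called), and at an unadjusted p below 0.05 there were 144 genes, among them *gata6*. The Nodal by BMP estimates ran from 0.23 for *sox17b* to 0.98 for *gata5* and the Wnt by BMP estimates from -0.25 for *gata4* to 0.15 for *sox17a*, also with 0 of 5 and 0% of all genes called. Unadjusted p below 0.05 were found for 175 and 78 genes and for none of the 5, and DESeq2 called 4 genes for Wnt by Nodal and 0 for the other pairs, none of them among the 5. On the linear scale the percent loss of a combined LOF was divided by the sum of the percent losses of its parts, so that 1 stands for additive losses. This synergy factor was 0.611, 0.704, 0.575, 0.591 and 0.553 for Wnt/Nodal in the same gene order, and it ranged from 0.635 to 0.780 for Nodal/BMP and from 0.745 to 0.908 for Wnt/BMP. A factor of 1 cannot be reached where the separate losses sum to more than all of the RNA. This was so for 11 of the 15 factors, those of *sox17a* and the GATA genes for Wnt/Nodal and Nodal/BMP and those of the GATA genes for Wnt/BMP, so that a value below 1 is a description there. For *sox17a* and *sox17b* in Wnt/BMP and for *sox17b* in the other pairs the separate losses summed to 49.0% to 93.6% of the control level. Some Wnt/BMP factors passed 1 under the alternatives, at 1.27 for *sox17b* and 1.01 for *gata5* in intron counts and at 1.03 for *gata5* without replicate 1.

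Intron counts, a readout of unspliced RNA, were low in the same groups. In Nodal LOF embryos introns of 4 of the 5 genes fell, where 1.92% of 11499 genes fell (edgeR on intron counts). The exception was *gata5*, at -2.11 with an adjusted p of 0.164, whose introns held 56.3, 56.6 and 16.5 CPM in Nodal LOF and 246, 213 and 98.1 CPM in control libraries. Replicate 3 was low in both groups, and no Nodal LOF library reached its lowest control. For *gata4* the intron values were 97.0, 95.3 and 74.7 CPM in Nodal LOF and 641, 469 and 389.5 CPM in control libraries, which lie far apart (log2 fold change -2.49, adjusted p = 0.000806). The estimates were -1.78 for *sox17a*, -2.20 for *sox17b* and -1.95 for *gata6*. In Nodal/BMP, Wnt/Nodal and Wnt/Nodal/BMP LOF all 5 genes were called lower in introns, against 2%, 3.04% and 3.88% of genes, and in Wnt/BMP LOF *gata4* and *gata6* were (2.37%). Exon and intron counts come from the same libraries and are not independent of each other.

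The balance between the sox17 genes differed between groups. The number of *sox17b* exon counts per *sox17a* exon count was 1.1, 0.905 and 1.17 in Nodal LOF libraries, against 0.624, 0.683 and 0.644 in control libraries. All Nodal LOF libraries lay above the controls, and the same held for the other 6 LOF groups. Group means were 1.11 ± 0.286 in Wnt/Nodal/BMP, 1.21 ± 0.181 in Wnt/Nodal, 0.936 ± 0.0954 in Nodal/BMP, 1.06 ± 0.137 in Nodal, 1.12 ± 0.189 in Wnt/BMP, 1.06 ± 0.111 in Wnt and 0.757 ± 0.00437 in BMP LOF, against 0.650 ± 0.0299 in control (mean ± SD, n = 3 each). The exact permutation test gave p = 0.10 (two-sided, also after adjustment over 7 comparisons) for each, the smallest value that 3 against 3 libraries can give. This test treated libraries as unpaired and cannot pass 0.05 with 3 libraries per group. Its floor equals the level of 0.1 used for the edgeR tests, and no call was made from it. In the T-box experiment the ratio was lower after the LOF. At stage 10+ it was 0.417, 0.386, 0.371 and 0.378 in 4x zT LOF and 0.487, 0.431, 0.432 and 0.456 in control MO libraries, with no overlap. The means were 0.311 ± 0.0248 in 4x zT LOF and 0.372 ± 0.0129 in control MO at stage 11+, and 0.224 ± 0.0132 and 0.246 ± 0.0144 at stage 12+ (n = 4 each). At each of the 3 stages the exact permutation p was 0.0286, the smallest for 4 against 4 (two-sided, 0.0286 adjusted over 3 comparisons). The differences were -0.0636, -0.0601 and -0.0221 counts of *sox17b* per *sox17a* count at stages 10+, 11+ and 12+. At stage 12+ the groups came close, with a highest 4x zT LOF library of 0.2329 and a lowest control MO library of 0.2331. In intron counts the ratio of Nodal LOF was below that of control by a difference of -0.62, from 18 to 40 intron counts of *sox17a* per Nodal LOF library. No other LOF group changed its direction in intron counts. The number of reads that the paralogs share is not known.

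**Figure D3:**
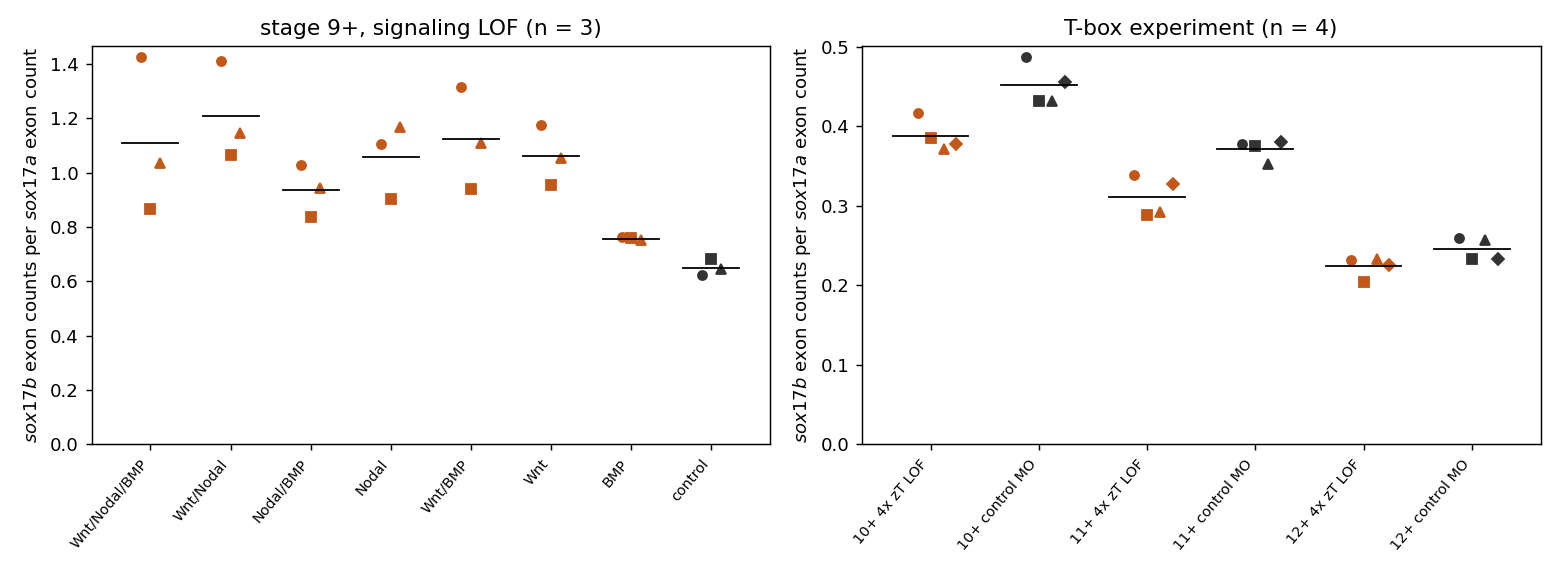
Exon counts of *sox17b* per exon count of *sox17a* in each stage 9+ library (left, n = 3 per group) and each T-box library (right, n = 4 per group); bars are group means. LOF libraries lie above the control libraries on the left, and 4x zT LOF libraries lie below the control MO libraries of their stage on the right.

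The wider pathway was read from lists of upstream inputs (15 genes tested, among them Nodal ligands, Mix and Bix genes and *foxh1*), downstream endoderm genes (11 tested at stage 9+) and relatives of the GATA and sox17 genes (4 tested). The list of relatives also holds *zfpm1*, a gene of a GATA cofactor and not a member of either family. Over all genes tested 0.669% were called lower in Nodal LOF, 0.887% in Wnt LOF and 2.1% in Wnt/Nodal LOF. The counts called lower in each list, germ layer markers included, are set against these shares. In Nodal LOF embryos 7 of 15 upstream genes fell and none rose, with a median log2 fold change of -1.45 against 0.00 over all genes. Among them were *nodal1* (-3.88), which encodes a Nodal ligand, the T-box gene *eomes* (-2.89) and the homeobox genes *mixer* (-2.48), *mix1* (-2.17) and *bix1.1* (-2.38). Of the downstream genes 4 of 11 fell and none rose (median -2.70), including the antagonists *cer1* (-6.69) and *lefty* (-3.30) and the homeobox gene *hhex* (-5.59). In Wnt LOF embryos 2 of 15 upstream genes fell, the homeobox gene *sia1* and the ligand gene *nodal5* (-4.62), 1 rose, *nodal* (0.96), and 3 of 11 downstream genes fell, among them *cer1* (-8.54) and *hhex* (-3.10). Wnt/Nodal LOF lowered 10 of 15 upstream and 7 of 11 downstream genes, with medians of -2.33 and -4.43, also with the 1 gene per list that had no count in that LOF group set at 3 counts per library. In BMP LOF embryos 0 genes of either list were called. The relatives *gata2*, *gata3*, *sox7* and *zfpm1* were called in none of the 7 comparisons with control, although *gata2* was estimated at -3.02 in Nodal LOF (adjusted p = 0.216). The 7 comparisons share the 3 control libraries. Markers of the other germ layers moved in part with the signals: the summed level of 5 mesoderm markers ran from 167 to 276 CPM in Nodal LOF and from 131 to 233 CPM in Wnt/Nodal LOF, against 441 to 907 CPM in control libraries, with 1 and 4 of the 5 called lower. The sum of 7 ectoderm markers ran from 1287 to 1798 CPM in Nodal LOF, with none called, from 1912 to 2313 CPM in Wnt LOF and from 1723 to 2488 CPM in Wnt/Nodal LOF, against 1029 to 1626 CPM in control libraries. The Wnt and Wnt/Nodal LOF sums lay above every control library. In Wnt, Wnt/Nodal, Nodal/BMP and Wnt/Nodal/BMP LOF 1 of the 6 ectoderm markers tested was called higher, where 0.262%, 0.287%, 0.0687% and 0.369% of all genes rose. No mesoderm or ectoderm marker was at 0 in all libraries of a group, and their part in the levels of the endoderm factors was not tested.

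LOF of the zygotic T-box factors lowered the sox17 genes at the early and mid-gastrula stages while the GATA genes ended above control at the late gastrula stage. At stage 10+, 4 of 5 genes fell (*gata5* was the exception) where 8% of 17188 genes fell, and at stage 11+ 3 of 5 fell (*sox17a*, *sox17b* and *gata6*; background 16.8%). At stage 12+ none of the 5 fell (none at an unadjusted p below 0.05 either), where 16.4% of genes fell. The 3 GATA genes rose there, where 21.4% of genes rose. The effect of 4x zT LOF differed between the stages for 5 of 5 genes (stage by condition test, 27.1% of genes), with adjusted p of 0.00749, 0.000968, 0.000152, 0.00248 and 0.000587 for *sox17a*, *sox17b*, *gata4*, *gata5* and *gata6* (edgeR). For *sox17a* this call was lost without replicate 4 (adjusted p = 0.112). Averaged over the 3 stages, *sox17a*, *sox17b* and *gata6* were lower (20.3% of genes) and *gata5* was higher (21.6%), at -0.32, -0.52, -0.23 and 0.41 on the log2 scale, and *gata4* stood at -0.01. The call of *gata6* was lost without replicate 2 (edgeR, adjusted p = 0.165) or replicate 4 (0.211), and that of *gata5* without replicate 3 (0.117).

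At stage 10+ *sox17b* had 78.0, 81.1, 64.8 and 74.4 CPM in 4x zT LOF libraries, against 119, 119, 105 and 129.9 CPM in control MO libraries (replicates 1 to 4). The groups were clearly apart (log2 fold change -0.66, SE 0.08, adjusted p = 5.35e-06). At stage 11+ *sox17b* had 81.2, 76.8, 81.6 and 77.3 CPM in 4x zT LOF and 124, 134, 128 and 147 CPM in control MO libraries. This was the deepest fall among the 5 genes in exon counts (log2 fold change -0.75, SE 0.08, adjusted p = 4.94e-07). At stage 12+ the groups overlapped, with 71.5, 75.6, 83.9 and 83.6 CPM after 4x zT LOF and 82.2, 87.3, 93.4 and 88.3 CPM after control MO. The estimate of -0.16 had an adjusted p of 0.136 in edgeR and of 0.0821 with the replicate block, which passes 0.1 (25.1% of genes lower with the block). DESeq2 and edgeR with its size factors passed it too (adjusted p = 0.0522 and 0.0680). Mean levels of *sox17b* after 4x zT LOF at stages 10+, 11+ and 12+ were 74.6 ± 7.08, 79.2 ± 2.54 and 78.6 ± 6.13 CPM (mean ± SD, n = 4), a difference between stages that was not tested, and control MO levels were 118 ± 10.2, 133 ± 9.98 and 87.8 ± 4.58 CPM.

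The paralog *sox17a* had 187, 210.3, 175 and 197 CPM in 4x zT LOF and 243, 275, 243 and 285 CPM in control MO libraries at stage 10+ (log2 fold change -0.44, SE 0.08, adjusted p = 0.000619). At stage 11+ it had 240.1, 266, 279 and 236 CPM in 4x zT LOF and 328, 357, 364 and 387 CPM in control MO libraries (log2 fold change -0.49, SE 0.08, adjusted p = 9.72e-05). At both stages the highest 4x zT LOF library was below the lowest control MO library. At stage 12+ the groups overlapped, with 308, 369, 360.3 and 371 CPM in 4x zT LOF and 317, 374, 363 and 379 CPM in control MO libraries. Libraries of the same number lay close together there, at 97.0%, 98.8%, 99.4% and 98.1% of control, and the 95% interval of the log2 difference ran from -0.19 to 0.14.

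Of the GATA genes, *gata4* had 236, 232, 231 and 200.2 CPM in 4x zT LOF and 263, 292, 308 and 343 CPM in control MO libraries at stage 10+ (log2 fold change -0.42, SE 0.10, adjusted p = 0.00593). The groups did not overlap, but without replicate 4, the lowest 4x zT LOF library and the highest control, the fall no longer passed (log2 fold change -0.30, adjusted p = 0.119). At stage 11+ *gata4* overlapped between the groups (log2 fold change -0.12, SE 0.10, adjusted p = 0.422), and at stage 12+ it was higher, with 157, 212, 215 and 222 CPM in 4x zT LOF and 139, 151, 140.5 and 127 CPM in control MO libraries (log2 fold change 0.53, SE 0.10, adjusted p = 0.000324). Replicate 1 showed the smallest rise of *gata4*, at 113% of control, and replicate 4 the largest, at 174%. The largest rise in exon counts was that of *gata5* at stage 12+, with 55.9, 57.3, 66.8 and 70.2 CPM in 4x zT LOF and 28.8, 28.2, 29.4 and 31.0 CPM in control MO libraries (log2 fold change 1.09, SE 0.17, adjusted p = 3.71e-05). At stages 10+ and 11+ *gata5* overlapped between the groups, with estimates of -0.09 and 0.25. Lower levels of *gata6* at stages 10+ and 11+, 175 ± 12.2 and 364 ± 40.3 CPM in 4x zT LOF against 247 ± 30.7 and 489.9 ± 33.4 CPM in control MO embryos (mean ± SD, n = 4; log2 fold change -0.50 and -0.43), gave way to a higher one at stage 12+. There *gata6* had 472, 480.5, 619.5 and 571 CPM in 4x zT LOF and 414, 439, 473 and 469.8 CPM in control MO libraries, which overlapped (log2 fold change 0.25, SE 0.10, adjusted p = 0.0519). This call was lost without replicate 3 (adjusted p = 0.201) or without replicate 4 (adjusted p = 0.142). Separation without overlap was seen for 4 genes lower at stage 10+ (7.21% of genes), 3 lower at stage 11+ (12.3%) and 2 higher at stage 12+ (16.9%).

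**Figure D4:**
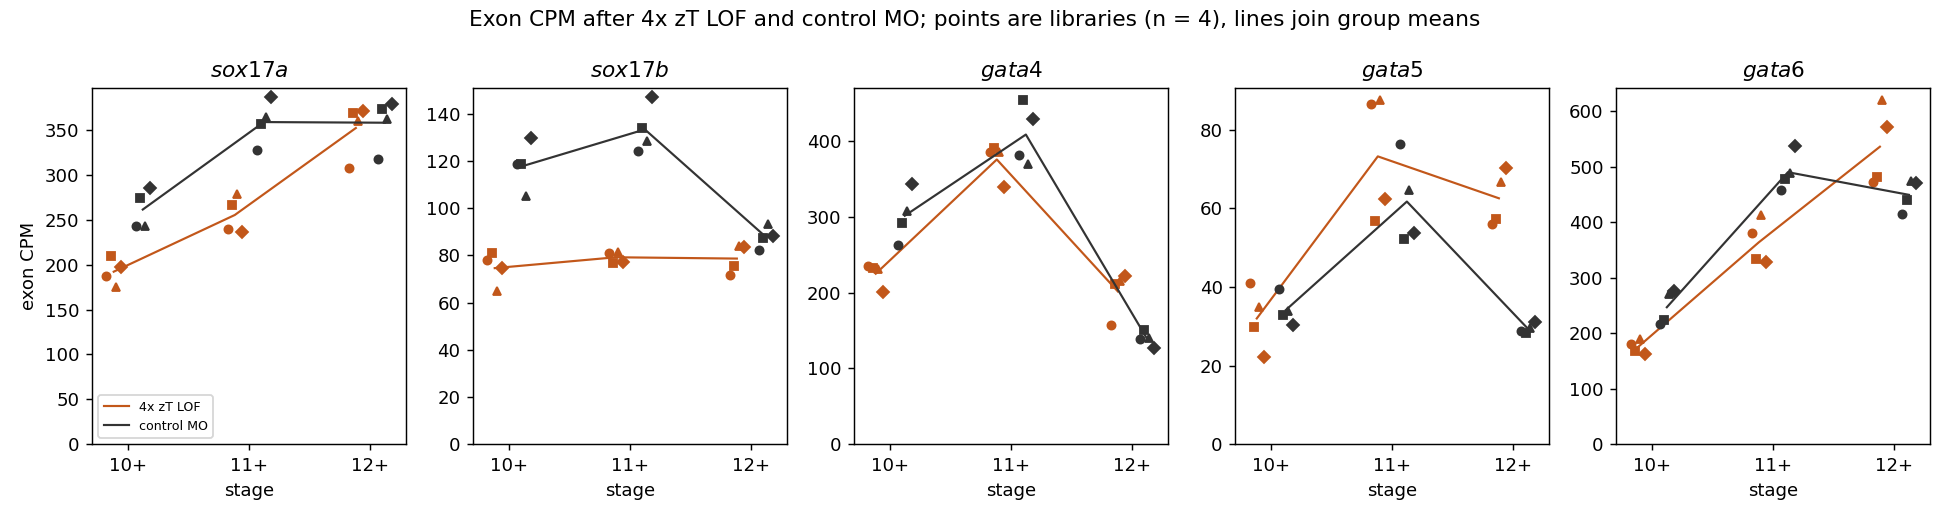
Exon CPM of each endoderm factor at stages 10+, 11+ and 12+ after 4x zT LOF (orange) and control MO (dark); points are libraries (n = 4 per group) and lines join group means. Points of *sox17b* after 4x zT LOF stay near 79.2 CPM while its control MO points fall by stage 12+, and all *gata5* points lie above control MO at stage 12+.

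Ranked over the 6 T-box groups, *gata4* was highest at stage 11+, at 375 ± 23.9 CPM in 4x zT LOF and 408 ± 40.0 CPM in control MO embryos, and these groups overlapped. Its lowest level, 139 ± 9.74 CPM in control MO embryos at stage 12+, lay apart from the next, that of 4x zT LOF embryos at the same stage. The highest mean of *gata5* was 73.2 ± 16.0 CPM in 4x zT LOF embryos at stage 11+, which overlapped with the 61.7 ± 11.2 CPM of control MO embryos and with the 62.5 ± 7.01 CPM of 4x zT LOF embryos at stage 12+. For *sox17a* the 3 highest means, 359 ± 24.3 CPM in control MO embryos at stage 11+ and 352 ± 29.9 and 358 ± 28.0 CPM in 4x zT LOF and control MO embryos at stage 12+, did not differ beyond their spread. In *sox17b* the 3 lowest were those of 4x zT LOF, and *gata6* had its highest mean in 4x zT LOF embryos at stage 12+.

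Introns of the GATA genes were more abundant after 4x zT LOF at every stage, also at stage 10+, where exon counts of *gata4* and *gata6* were lower. In the fit of intron counts over 13026 genes, *gata4*, *gata5* and *gata6* rose at stages 10+, 11+ and 12+ (backgrounds 5.37%, 10.7% and 15.6% of genes higher). Intron counts of *gata5* were 869.7, 814, 665 and 507 CPM in 4x zT LOF and 400.5, 347, 184 and 283 CPM in control MO libraries at stage 10+. All 4 libraries with 4x zT LOF lay above all controls (log2 fold change 1.24, adjusted p = 0.00252, edgeR). The estimates for *gata5* were 1.70 at stage 11+ and 2.01 at stage 12+. Introns of *gata4* held 407, 474.7, 489.9 and 575 CPM in 4x zT LOF and 206, 312, 150.5 and 197 CPM in control MO libraries at stage 11+, again without overlap (log2 fold change 1.17, adjusted p = 0.000113). At stage 10+ the rise of *gata4* introns was smaller (0.55, adjusted p = 0.0752), as was that of *gata6* (0.35, adjusted p = 0.0787). At stage 12+ *gata6* introns held 555, 564, 761 and 682 CPM in 4x zT LOF and 275, 298, 285 and 266 CPM in control MO libraries, far apart (1.19, adjusted p = 1.56e-07). In contrast, introns of *sox17b* fell at the 3 stages (-0.65, -0.64 and -0.42; backgrounds 5.92%, 10.9% and 15% lower), and those of *sox17a* at stages 10+ and 11+ (-0.42 and -0.42), with -0.26 and an adjusted p of 0.166 at stage 12+. For both sox17 genes the direction in introns was that in exons. The difference between stages was called for 1 of 5 genes in introns, *gata6* (adjusted p = 0.0136, 7.44% of genes).

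The number of intron counts per 100 exon counts of the same gene compares the 2 readouts within a library. For *gata5* it averaged 89.0 ± 7.51 against 34.1 ± 7.62 at stage 10+, 55.9 ± 17.3 against 20.9 ± 6.61 at stage 11+ and 31.6 ± 9.32 against 14.8 ± 2.56 at stage 12+ (4x zT LOF against control MO, mean ± SD, n = 4 each). For *gata4* it averaged 11.9 ± 1.84 against 5.92 ± 0.618 at stage 10+, 7.12 ± 1.32 against 2.93 ± 0.559 at stage 11+ and 4.97 ± 0.818 against 2.79 ± 0.460 at stage 12+, and for *gata6* 27.4 ± 3.65 against 14.9 ± 2.11 at stage 10+, 16.9 ± 2.13 against 7.43 ± 0.862 at stage 11+ and 11.9 ± 0.596 against 5.44 ± 0.627 at stage 12+. Each of these 9 differences was without overlap, with an exact permutation p of 0.0286 (two-sided, the smallest that 4 against 4 allows) and of 0.0476 after adjustment over 15 tests. The permutation treated libraries as unpaired, although replicate numbers pair them. The means for *sox17a* were 1.11 ± 0.117 against 1.08 ± 0.147 at stage 10+, 1.29 ± 0.155 against 1.26 ± 0.107 at stage 11+ and 1.44 ± 0.145 against 1.46 ± 0.104 at stage 12+, and those for *sox17b* 4.91 ± 0.779 against 4.80 ± 0.673 at stage 10+, 5.13 ± 0.450 against 4.90 ± 0.360 at stage 11+ and 5.62 ± 0.326 against 5.86 ± 0.700 at stage 12+. Both sox17 genes overlapped between the groups at each stage (exact permutation p from 0.429 to 0.857). So 3 of 5 genes were higher without overlap at each stage, where this held for 6.43% of 12039 genes at stage 10+, 11% of 12169 at stage 11+ and 26.9% of 12226 at stage 12+. Intron counts made up 4.07% to 4.83% of a library after 4x zT LOF and 3.87% to 4.68% after control MO at stage 10+, 5.38% to 6.20% and 5.30% to 5.61% at stage 11+, and 7.50% to 7.79% and 6.27% to 6.78% at stage 12+. At stage 12+ the whole-library shares were apart in the same direction as the GATA genes, and their part in the GATA values was not tested. Counting did not use strand, so RNA of another gene within an intron would be counted too.

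**Figure D5:**
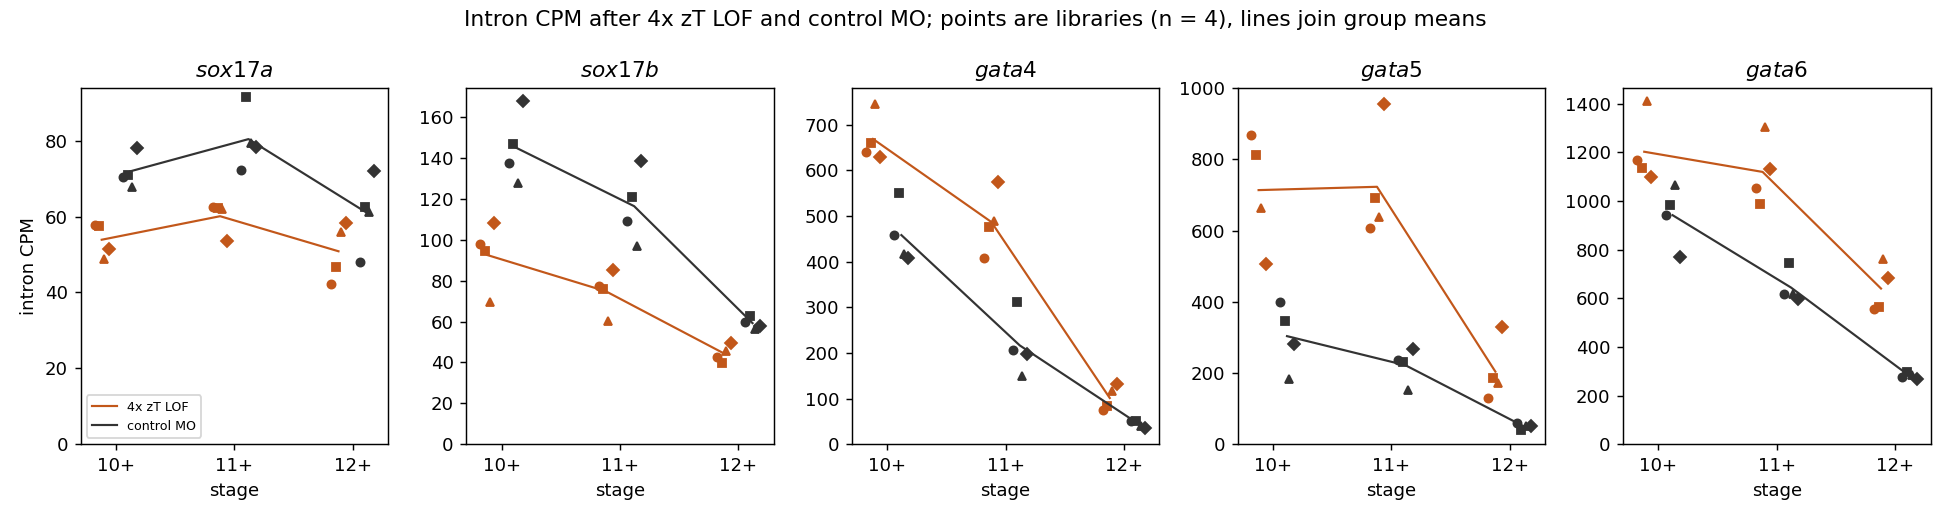
Intron CPM of each endoderm factor at stages 10+, 11+ and 12+ after 4x zT LOF (orange) and control MO (dark); points are libraries (n = 4 per group) and lines join group means. GATA gene introns lie higher after 4x zT LOF, for *gata5* at 723 against 222 CPM on average at stage 11+, and *sox17b* introns lie lower.

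Beside the 5 genes, 0, 1 and 2 of 15 upstream genes fell and 3, 9 and 11 rose after 4x zT LOF at stages 10+, 11+ and 12+ (medians 0.03, 0.71 and 1.1, against -0.02, -0.02 and 0.03 over all genes). Over all genes 8%, 16.8% and 16.4% fell and 9.37%, 16.8% and 21.4% rose at these stages, and the counts of each list are set against these shares. In control MO embryos 13 of the 15 upstream genes fell from stage 10+ to 11+ and 13 from stage 11+ to 12+ (medians -1.28 and -3.40). A rise of these genes is thus relative to mostly falling controls. Mean *eomes* was 648, 585 and 207 CPM in 4x zT LOF and 467, 210 and 68.4 CPM in control MO embryos. Mean *vegt* was 1415, 2247 and 1317 CPM against 1507, 1184 and 378 CPM. At stage 12+ the T-box genes *eomes* (1.60) and *vegt* (1.80), both MO targets themselves, *bix1.1* (2.01), *mixer* (1.48) and *mix1* (0.96) were higher, and the TGF-β ligand gene *gdf3* (-3.12) was lower. Of 13 downstream genes 4, 5 and 1 fell and 1, 2 and 2 rose, of which the share that rose was below that of all genes at each stage, as was the share that fell at stage 12+. The forkhead genes *foxa1*, *foxa2* and *foxa4* were lower at stage 11+ (-0.65, -1.08 and -0.40) and not called at stage 12+ (-0.06, -0.15 and -0.24). Among the relatives *gata2*, a ventral and blood factor, was lower at stages 10+ and 11+ and higher at stage 12+ (-0.52, -0.70 and 0.26), while *sox7*, a vegetal relative of *sox17*, was higher at stages 10+ and 11+ (0.87 and 1.61). Mesoderm markers moved with the T-box LOF, with 4, 4 and 3 of 5 lower at the 3 stages and 0, 0 and 1 higher, and summed levels of 582 to 745 CPM in 4x zT LOF and 803 to 1156 CPM in control MO libraries at stage 11+. At stage 12+ the mesoderm sums were 835 to 1123 CPM in 4x zT LOF and 642 to 905 CPM in control MO libraries, overlapping ranges with the higher ends in 4x zT LOF. The sums include *tbxt*, itself an MO target and a large part of them. Mean *tbxt* in 4x zT LOF and control MO embryos was 496 and 685 CPM at stage 11+, and 817 and 534 CPM at stage 12+. The median log2 fold change of the 5 mesoderm markers at stage 12+ was -0.50. Of 7 ectoderm markers 1, 3 and 1 were lower and 0, 1 and 5 higher, with sums of 4664 to 5182 CPM in 4x zT LOF and 4403 to 4899.8 CPM in control MO libraries at stage 12+. None of these markers was at 0 in a whole group. Their part in the values of the endoderm factors was not tested. RNA of the MO target *tbxt.2* ran from 0.501 to 7.37 CPM in 4x zT LOF and from 49.1 to 75.8 CPM in control MO libraries at stage 11+. The other targets did not share such a fall. At stages 10+, 11+ and 12+ the log2 estimates were -0.43, -0.47 and 0.61 for *tbxt*. They were 0.47, 1.48 and 1.60 for *eomes* and -0.09, 0.92 and 1.80 for *vegt*.

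In control MO embryos the 5 genes followed separate courses through gastrulation. All 5 rose between stages 10+ and 11+ (28.5% of genes higher), by 0.46, 0.18, 0.44, 0.85 and 0.99 on the log2 scale for *sox17a*, *sox17b*, *gata4*, *gata5* and *gata6* (edgeR, adjusted p from 3.36e-08 to 0.0641). Between stages 11+ and 12+ *sox17b*, *gata4* and *gata5* fell (-0.60, -1.55 and -1.07; 36% of genes lower). Over that step *gata4* had 139, 151, 140.5 and 127 CPM at stage 12+, against 381, 454, 369 and 429 CPM at stage 11+, wide apart. The genes *sox17a* and *gata6* were not called, with estimates of 0.00 and -0.13 and 95% intervals of -0.17 to 0.16 and -0.33 to 0.08. Intron counts, as CPM scaled to the intron total of a library, took another course. Between stages 10+ and 11+ those of *sox17b*, *gata4* and *gata6* fell (-0.32, -1.08 and -0.55; 20.3% of genes lower), while their exon counts rose, and between stages 11+ and 12+ introns of all 5 fell (-0.40, -0.98, -2.26, -2.14 and -1.20; 29.1% lower). The rise of *sox17b* exons was small and was lost without replicate 2, 3 or 4 (adjusted p = 0.172, 0.161 and 0.140).

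Nascent transcripts of the sox17 genes, of *gata4* and, less strongly and from few counts, of *gata6* were already enriched at the MBT. Counts in 4sU-enriched RNA were divided by those in input RNA, each scaled by a DESeq2 size factor, to give an enrichment for genes with at least 10 input counts. With 1 library of each kind per stage there was no replicate check and no test, and the intervals cover counting error only. Pairs on genes numbered 888940 in 4sU-enriched and 7884062 in input RNA at stage 8+, and to 1538052 and 6470826 at stage 10+. At stage 8+ the enrichment was 11.0 (95% counting interval 8.64 to 14.0) for *sox17a*, from 141 and 143 counts in 4sU-enriched and input RNA. It was 15.9 (95% counting interval 13.2 to 19.3) for *sox17b* (269 and 188 counts) and 23.6 (95% counting interval 14.4 to 39.7) for *gata4* (53 and 25 counts). The median over 11761 genes was 0.764, and 0.757% of genes had a higher value than *gata4*. For *gata6* the enrichment was 3.87 (95% counting interval 2.05 to 6.97) from 16 and 46 counts, with 8.80% of genes higher. The gene *gata5* had 0 counts in 4sU-enriched and 5 in input RNA, too few for a value. At stage 10+ all 5 could be measured, at 5.55 (95% counting interval 5.02 to 6.12) for *sox17a*, 6.61 (95% counting interval 6.03 to 7.25) for *sox17b*, 9.54 (95% counting interval 8.40 to 10.9) for *gata4*, 8.04 (95% counting interval 4.04 to 16.2) for *gata5* and 7.54 (95% counting interval 6.0 to 9.47) for *gata6*. All lay above the median of 0.684 over 11662 genes, and 4.14% to 9.13% of genes had a higher value. The intervals of *sox17a*, *sox17b* and *gata4* at stage 10+ lie below those at stage 8+, and that of *gata6* overlaps. Scaling by total counts in place of size factors lowered the values at stage 10+ to 3.58, 4.27, 6.17 and 4.87 for *sox17a*, *sox17b*, *gata4* and *gata6*, each below its counting interval. It lowered the values of these genes at stage 8+ as well, that of *sox17b* to below its counting interval. Such scaling changes all genes of a stage by the same factor, so their standing among all genes stays the same. Input RNA itself was higher at stage 10+ than at stage 8+, by a ratio of 22.3 for *gata4* after size factors (406 against 25 counts). The ratio was 8.43 for *sox17a*, 6.63 for *sox17b* and 4.36 for *gata6*, and *gata5* had too few input counts at stage 8+ for a ratio.

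By their mean log2 CPM over the 8 stage 9+ groups, the 5 genes were alike, with pairwise Pearson correlations from 0.869 to 0.991. The group means share libraries and treatments between genes, so these correlations are descriptions. Among 367 named genes whose group means spanned at least 1 on the log2 scale, at 50 or more counts on average, the patterns nearest to *sox17a* were those of *cdc42ep2* (0.996), *rnd1* (0.994) and *osr1* (0.993). Nearest to *sox17b* were *mixer* (0.990), *mix1* (0.984) and *menf.1* (0.982), of which *mixer* and *mix1* are homeobox genes of the mesendoderm. Those nearest to *gata4* were *sdc4* (0.994), *mgc69493* (0.994) and *pacsin1* (0.992), that for *gata5* *zswim4* (0.995), *gata6* (0.991) and *ankrd57* (0.990) and that for *gata6* *gata5* (0.991), *zswim4* (0.985) and *pacsin1* (0.979). Thus *gata5* and *gata6* stood in each other's list. Over the 6 T-box groups the 5 genes diverged, with correlations from -0.17 between *sox17a* and *gata4* to 0.939 between *sox17a* and *gata6*. There, out of 7252 genes, the nearest patterns were *amelx* (0.996) for *sox17a*, *prpf31* (0.982) for *sox17b*, *avp* (0.996) for *gata4*, *cyp27c1* (0.984) for *gata5* and *pcdh18* (0.997) for *gata6*, each over only 6 points. None of the 5 genes was among the 3 nearest of another in this experiment.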

How the data were processed

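Whole embryos were profiled by poly(A) RNA-seq at stage 9+ (8 groups of 3 libraries) and at stages 10+, 11+ and 12+ (6 groups of 4), and by 4sU-selected RNA-seq (4 libraries). The authors aligned poly(A) reads with STAR 2.5.3a to *X. tropicalis* assembly v7.1 and deposited raw counts over exons and introns of revised v7.2 gene models, counted without strand. The 4sU pairs were aligned to transcripts with Bowtie2 2.1.0 and deposited as counts of unique pairs, without replicates, with 39.5% to 95.5% of pairs on a line for unmapped pairs that was left out here. Annotated symbols covered 13306 of the gene IDs.

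Genes kept by edgeR's filterByExpr (16001 at stage 9+, 17188 in the T-box experiment) were fitted by edgeR 4.0.16 (R 4.3.3) with TMM factors, 1 mean per group and no replicate block, and tested by quasi-likelihood F-tests with Benjamini-Hochberg adjustment over all genes at 0.1, the authors' level. CPM divide counts by the TMM-adjusted library size. Exon totals were 27710453 to 45443446 and 26586752 to 60984753 per library, and intron totals 1111752 to 1914882 and 1565436 to 4708294. Intervals for 4sU enrichment cover counting error only. The fit was run on simulated counts with known changes. These had the same dispersion for every gene and no effect shared by a replicate number, so the run does not cover such effects. No pair of replicates agreed within sampling noise.

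Replicate numbers come from the labels, which do not say what a number shares. Deviations from group means correlated at 0.525 to 0.827 between libraries of the same number and at -0.582 to -0.189 between others at stage 9+ (21 and 42 pairs), and at 0.543 to 0.831 and -0.432 to 0.111 in the T-box experiment (12 and 36 pairs), so the numbers pair the libraries. Deviations cancel within a group, so positive values for the same number force negative ones on average between others. The range between others is therefore not separate evidence of pairing.

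The 5 genes and the gene lists were chosen with earlier results of these data known. Named were all 5 members, examples of list genes past the threshold (some are not reported here), and the 3 genes nearest to each member by Pearson's r over group means. Alternatives were DESeq2's size factors in edgeR, no filter, DESeq2 1.42.0, the replicate block, intron counts and leaving out each replicate number. The test of the ratio of the sox17 genes and its alternatives, intron counts and leaving out replicates, were added after seeing the data. The permutation test of intron counts per exon count was not among the planned tests either. Coordinates and sequences were not used here.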

Additional observations from a re-analysis of the deposited data

Results flagged for a closer look

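In the 6 T-box groups of 4 libraries, a library stood apart from the other 3 in 5 of 60 checks, by the gap between the lowest or highest library and its neighbour divided by the range of the group (above Dixon's 95% limit for 4 libraries, which chance alone passes in about 1 of 20 groups). Exon CPM of *gata4* after 4x zT LOF had 1 low library at each stage, with a gap of 0.879 of the range at stage 10+ (replicate 4), 0.902 at stage 11+ (replicate 4) and 0.844 at stage 12+ (replicate 1). Intron CPM of *sox17a* after 4x zT LOF at stage 11+ had 1 low library (0.926, replicate 4), and intron CPM of *gata6* in control MO embryos at stage 11+ had 1 high library (0.856, replicate 2).

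The effect of 4x zT LOF on exon counts differed between stages 10+, 11+ and 12+ for all 5 genes in edgeR's stage by condition test, with adjusted p of 0.00749 for *sox17a*, 0.000968 for *sox17b*, 0.000152 for *gata4*, 0.00248 for *gata5* and 0.000587 for *gata6*. The same test called 27.1% of all genes. Without replicate 4 it did not call *sox17a* (adjusted p = 0.112), and in intron counts it called 1 of the 5, *gata6* (7.44% of genes).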

How the results depend on the processing

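Of 795 values of single genes under the alternatives, 693 kept their direction and side of the threshold, 64 lost the threshold, 12 gained it and 26 reversed, and the cause was not tested. In Wnt LOF, 1 of the 5 genes was called by DESeq2 and 1 with the replicate block, and in Wnt/BMP LOF 5 with the block, against 0 and 3 without it. The block changed 1 further call, *sox17b* at stage 12+. Over all genes the block called 365, 636 and 1214 in Nodal, Wnt and Wnt/BMP LOF and DESeq2 227, 310 and 482, against 109, 184 and 279. Leaving out a replicate number left 0 to 2 genes called in Nodal, 0 to 1 in Nodal/BMP, 2 to 3 in Wnt/Nodal, 0 to 1 in Wnt/BMP and 2 to 4 in Wnt/Nodal/BMP LOF. Calls over all genes fell in these fits as well, to 8 to 72, 12 to 70, 97 to 310, 11 to 239 and 88 to 447. Intron counts called 5 genes at stage 11+ after 4x zT LOF, 3 higher and 2 lower (10.7% and 10.9% of all genes). They called 1 in the stage by condition test (7.44% of genes). In control MO embryos they called 3 lower between stages 10+ and 11+ (20.3% of genes) and 5 lower between stages 11+ and 12+ (29.1%).

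Estimates that reversed in intron counts after 4x zT LOF were *gata4* 0.55, *gata5* 1.24 and *gata6* 0.35 at stage 10+, *gata4* 1.17 and *gata6* 0.80 at stage 11+, and *gata4* 0.95 and *gata6* 0.78 over the 3 stages. In control MO embryos between stages 10+ and 11+ they were *sox17b* -0.32, *gata4* -1.08, *gata5* -0.45 and *gata6* -0.55. At stage 9+ they were *sox17a* in the Wnt by Nodal (-0.0513), Wnt by BMP (-0.12) and Nodal by BMP (-0.28) interactions and the ratio of the sox17 genes in Nodal LOF (-0.62). Near 0, *sox17a* between stages 11+ and 12+ was 0.0887 with DESeq2's size factors in edgeR and 0.0885 in DESeq2, and ran from -0.0284 to 0.0136 without a replicate. Without a replicate the Wnt by BMP interaction ran from -0.106 to 0.00724 for *sox17b*, from -0.353 to 0.0672 for *gata5* and from -0.140 to 0.0259 for *gata6*. The difference of Wnt/Nodal/BMP LOF from Nodal LOF ran from -0.40 to 0.16 for *gata6*, and *gata4* over the 3 T-box stages from -0.0351 to 0.0266. Depth limits intron counts of *sox17a* and the 4sU values of *gata5*.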
